A study of Mus musculus with 16 samples.

Results

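The adrenal glands of male (XY) mice carrying an Rspo1 gain-of-function (GOF) allele were compared with those of male controls. The members are 8 of the study's 16 libraries, 4 male GOF and 4 male control, chosen by the sex and genotype in the sample labels, and the 18214 genes that passed a filter on low counts, of 54838 listed and 34196 with a count in any library. All animals were 4 weeks old and of mixed genetic background, and each library came from another mouse. The GOF animals are labelled only as Rspo1 GOF and the controls only as control, so the promoter or cells that drive the allele, and any allele that the controls may carry, were not known here. The other 8 libraries, female GOF and female control, entered the same model, so that they share in the estimate of the spread and in the filter, and served to test whether an effect differed between the sexes. With the male libraries alone, 5549 of 17327 genes were called. Replicates are numbered 1 to 4 within a group, and values in a series below follow that order.

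R-spondin 1, the product of Rspo1, is a secreted protein that binds the LGR4, LGR5 and LGR6 receptors and thereby keeps the ubiquitin ligases ZNRF3 and RNF43 from removing WNT receptors from the cell surface, so that a cell answers more strongly to WNT ligands. In the adrenal gland the cortex makes steroids in concentric zones under a mesenchymal capsule. The capsule is the usual source of R-spondins, WNT signalling is strongest in the outermost zone, the aldosterone-producing zona glomerulosa, and the zona fasciculata beneath it makes glucocorticoids under the pituitary hormone ACTH. The medulla at the centre holds the neural-crest-derived chromaffin cells that make adrenaline and noradrenaline.

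Library totals were alike in both groups, from 33092753 to 36523933 counts in controls and from 31275146 to 36529956 in GOF. Ddx3y, a Y-linked gene, had at least 4650 counts in each of the 8 libraries and Xist at most 23, as their label of male requires. Steroid cell, capsule, medulla and endothelial markers were all detected in the controls. Some libraries stood apart. Male control 2 held liver transcripts, where 12 liver genes added up to 10448 CPM (counts per 1000000 library counts), against 363 to 1045 in the other controls and 21.1 to 105 in GOF. It also had the highest skeletal muscle sum, 71.7 CPM against at most 4.48 in any other male library. Male GOF 1 was highest for 12 macrophage genes and male GOF 2 for T cell, B cell and neutrophil genes. Results that rest on these libraries are given with and without them.

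Rspo1 itself (ENSMUSG00000028871, GRCm38 chromosome 4, 124986430 to 125009099, protein-coding) followed the labels. Its level was 24.7, 48.2, 19.4 and 29.6 CPM in male controls 1 to 4 and 770.2, 942, 972 and 535 CPM in male GOF 1 to 4. Every GOF library lay above every control library, and male control 2 was the highest control. The log2 fold change was 4.72 ± 0.649 (SE), or 26.4-fold, and the adjusted p was 6.50e-05. That p comes from the quasi-likelihood test of edgeR, with Benjamini-Hochberg correction over all 18214 genes, the test and adjustment meant by each adjusted p that follows. Scaled to transcript length, Rspo1 stood at 25.97 ± 10.4 FPKM in controls and 746 ± 193 in GOF (SD, n = 4). The effect in males minus that in females was -0.22 ± 0.792 (SE) on the log2 scale (edgeR adjusted p = 0.907).

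Across all genes, 6725 of 18214 (36.9%) passed an adjusted p of 0.05 in edgeR, 2761 higher in GOF (15.2%) and 3964 lower (21.8%). Without male control 2, 5215 of 18501 passed (28.2%), 1921 higher (10.4%) and 3294 lower (17.8%). The 5084 genes called in both fits all kept their direction, and made up 75.6% of the first set and 97.5% of the second. Large changes were mostly decreases: 910 genes passed with a log2 fold change of at least 1 and 2456 with -1 or less, and at 16-fold or more the counts were 9 higher and 429 lower. All 4 GOF libraries lay above all 4 controls for 2542 genes (14.0%) and below them for 3486 (19.1%). These counts by size and by overlap include male control 2, with its liver transcripts, and were not made without it. The share of calls that were higher moved with the scaling, from 41.1% in the test above to 44.0% with RLE factors and 51.2% with upper-quartile factors. It was 61.3% and 60.8% in limma on log2(FPKM + 1) and log2(FPKM + 0.1), fits that also differ in the test, the unit and the genes tested (15831), and where the median gene lay 0.104 and 0.119 above control. The direction of small changes is therefore relative to the scaling; the median of all tested genes was 0.01 in the test above. The effect of GOF differed between males and females, by the interaction term of the same edgeR fit, for 766 genes (4.21%). That number was 1432 with DESeq2, 408 without the count filter, and 495, 421, 380, 377, 399 and 386 without male control 3, male GOF 3, male GOF 4, female control 3, female GOF 3 or female GOF 4.

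**Figure D1:**
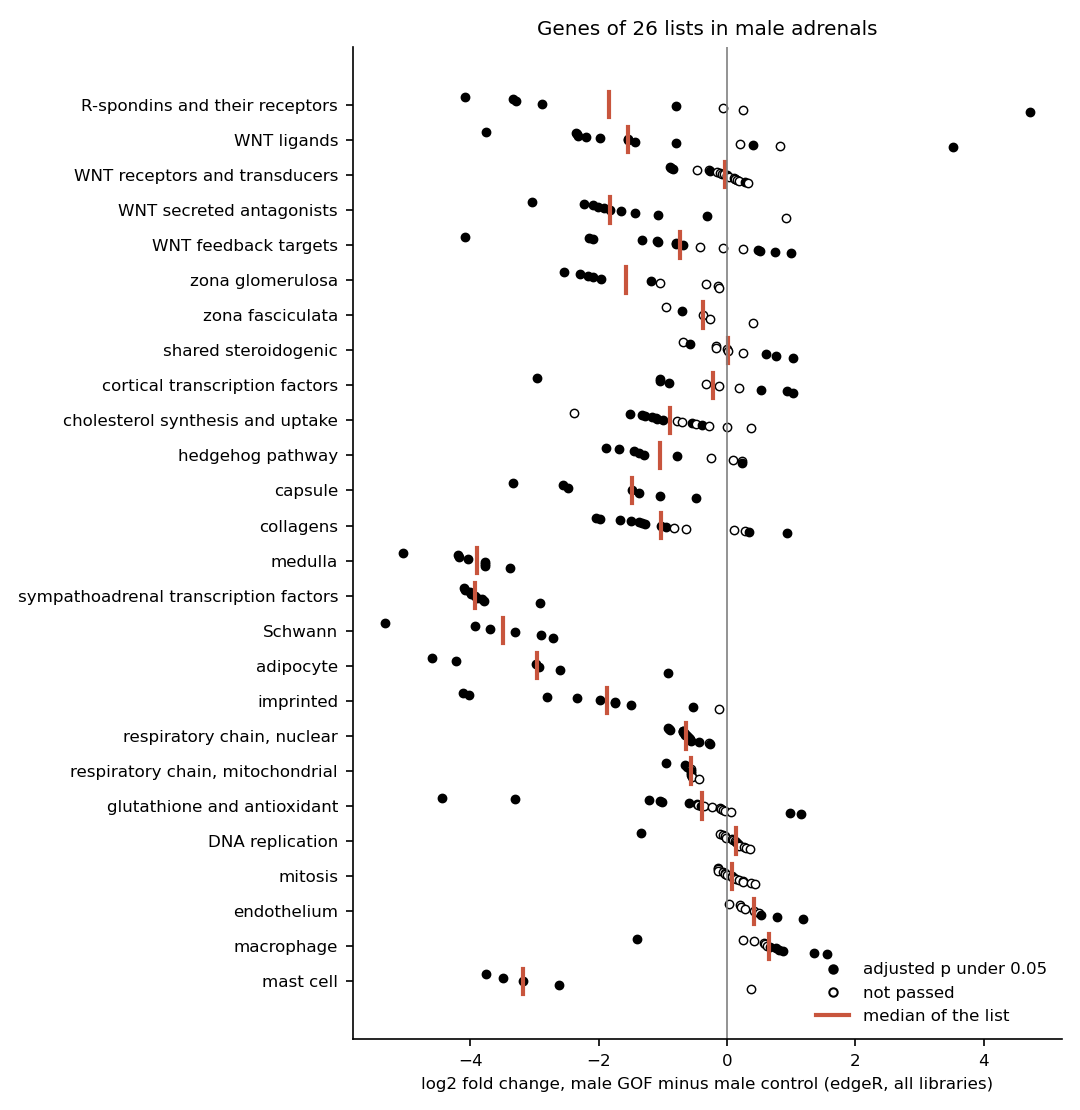
Log2 fold change (x axis, male GOF minus male control, edgeR with all libraries) of the tested genes of 26 lists (y axis). Each point is a gene, filled where its adjusted p was under 0.05, and the vertical bar is the list's median; medulla, sympathoadrenal, Schwann and fat lists lie to the left at medians of -2.96 to -3.93, and the WNT feedback targets lie on both sides of 0.

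Most other genes of the R-spondin system were lower in GOF. Of its 8 tested genes, Rspo1 included, 1 rose and 5 fell, with a median log2 fold change of -1.84 against 0.01 for all genes. The median was -0.80 among genes with at least 10 counts in every library, and -0.53 and -0.68 in the limma fits on log2(FPKM + 1) and log2(FPKM + 0.1). Rspo3, the R-spondin of the adrenal capsule, had 34.5, 28.0, 30.2 and 32.4 CPM in controls and 3.63, 2.37, 3.21 and 3.17 CPM in GOF, so that all 4 GOF libraries lay below all controls and the groups were far apart. Its log2 fold change was -3.33 ± 0.210 (SE; edgeR adjusted p = 1.98e-07). Lgr5, a receptor gene that is itself a WNT target, went from 68.2, 92.8, 90.8 and 76.1 CPM to 5.88, 4.80, 2.88 and 5.83 CPM, again without overlap, a log2 fold change of -4.08 ± 0.357 (edgeR adjusted p = 1.45e-06). Rspo2 and Lgr6, at most 1.73 and 9.03 CPM in any male library, fell by 2.88 and 3.29 on the log2 scale, and Rnf43 by 0.80. Lgr4 was more abundant than Lgr5 in controls when scaled to length, at 49.4 ± 6.38 against 33.2 ± 4.67 FPKM (SD, n = 4). It had 175, 139, 143 and 124 CPM in controls and 131, 147, 139 and 141 CPM in GOF, with the GOF values inside the control range, a log2 fold change of -0.06 ± 0.0994 (edgeR adjusted p = 0.674). That differed from females, where Lgr4 went from 383 ± 38.3 to 208 ± 16.1 CPM (SD, n = 4): the difference of effects was 0.82 ± 0.141 on the log2 scale (edgeR adjusted p = 0.00524). Znrf3 did not pass, with a log2 fold change of 0.25 (edgeR adjusted p = 0.0510), and passed without male control 4 or male GOF 3.

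Among 14 tested WNT ligands, 2 rose and 10 fell, with a median of -1.54, or -0.80 with the 10-count filter and -0.65 and -0.93 in the limma fits. Wnt4, a cortical ligand that maintains the zona glomerulosa, had 401, 321, 274 and 378 CPM in controls and 185, 261, 166 and 178 CPM in GOF. The groups did not overlap, although male GOF 2 came close to the lowest control, and the log2 fold change was -0.80 ± 0.184 (edgeR adjusted p = 0.00353). In females the mean of Wnt4 went the other way, from 349 ± 32.6 to 563 ± 152 CPM, and the difference between the sexes was -1.49 ± 0.260 (edgeR adjusted p = 0.00593). Wnt2b and Wnt6 fell by 1.98 and 2.20 on the log2 scale, with all GOF libraries below all controls. Wnt5a, a ligand best known for signalling without β-catenin, rose from 97.9, 91.4, 70.4 and 75.0 CPM to 124, 121, 102 and 98.1 CPM, by 0.41 ± 0.112 (edgeR adjusted p = 0.0101), with male GOF 4 just above male control 1. Wnt10b was called higher on the strength of male GOF 4, at 19.1 CPM against 0.229 to 1.67 CPM in the other GOF libraries. Without that library its log2 fold change went from 3.52 to 1.12, with an edgeR adjusted p of 0.262.

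The receptor and signal transduction genes, which include frizzleds, dishevelleds and the β-catenin destruction complex, had a median of -0.03. Of these, 1 of 20 was called higher and 4 lower, against 15.2% and 21.8% of all genes. The number higher was 0 without male control 3 or male GOF 3 and 2 without male control 1. The median changed sign with upper-quartile factors and in both limma fits. Fzd7 fell the most of the frizzleds, from 33.4, 34.4, 41.4 and 33.0 CPM to 20.4, 22.7, 17.3 and 16.5 CPM, a log2 fold change of -0.89. Secreted antagonists of WNT ligands fell in 10 of 11 cases, median -1.82 (-0.97 in limma on log2(FPKM + 1)), in 8 of 11 without male control 2 and in 6 of 11 without male GOF 2. Sfrp1 went from 51.9, 75.5, 81.4 and 80.4 CPM to 22.0, 20.1, 22.5 and 17.2 CPM (-1.82 ± 0.209, edgeR adjusted p = 1.12e-05). Dkk3 was highest in male control 2, at 152 CPM, and fell by 2.23 with it and by 1.74 without it. Frzb stood above 0, at 0.92 with an edgeR adjusted p of 0.0599, and passed without male control 2, at 1.38 (0.00491).

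The 16 feedback targets, genes that WNT and β-catenin signalling commonly switches on, went both ways: 4 rose and 9 fell, median -0.74 (-0.41 in limma on log2(FPKM + 1)), and 4 rose and 6 fell without male control 2. Lists can share genes, here Lgr5 and Rnf43 with the R-spondin list, so their counts are not separate observations. Axin2 (chromosome 11, 108920349 to 108950783), which encodes a scaffold of the destruction complex and is a widely used readout of the pathway, rose from 73.4, 75.1, 77.8 and 93.3 CPM to 148, 139.5, 173 and 182 CPM. Its lowest GOF library stood well above its highest control, and the log2 fold change was 1.01 ± 0.108 (edgeR adjusted p = 6.07e-06). Tnfrsf19, a receptor of the tumour necrosis factor family, rose from 108, 96.1, 92.8 and 109.8 to 147, 170.2, 116 and 149 CPM, by 0.52 ± 0.111 (edgeR adjusted p = 0.00212). Myc, a growth-promoting transcription factor, rose by 0.75, and Tcf7, which encodes a partner of β-catenin on DNA, by 0.48, with the highest Tcf7 control above the lowest GOF library. In the opposite direction Apcdd1, an inhibitor at the cell surface, went from 70.8, 80.0, 73.6 and 73.0 CPM to 22.3, 12.002, 16.1 and 16.7 CPM. This was a log2 fold change of -2.15 ± 0.178 (edgeR adjusted p = 9.43e-07), with each group narrow and far from the other. Nkd1, an inhibitor that binds dishevelled, fell by 1.33, the G1 cyclin gene Ccnd1 by 0.68 and Lef1, another partner of β-catenin, by 1.09. Lef1 was at 8.72 CPM in male GOF 2 and at most 4.43 CPM in the other GOF libraries. Notum, an extracellular WNT-inactivating enzyme, fell by 1.08 but lost its call without male control 2 (-0.95, edgeR adjusted p = 0.0647) and on leaving out either of male GOF 2 and 4. Without male control 2, male GOF 1 and male GOF 2 together, Tcf7, Tnfrsf19, Myc and Wnt5a also lost their calls, at log2 fold changes of 0.21, 0.33, 0.60 and 0.27, whereas Axin2, Apcdd1, Nkd1 and Lgr5 kept theirs.

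**Figure D2:**
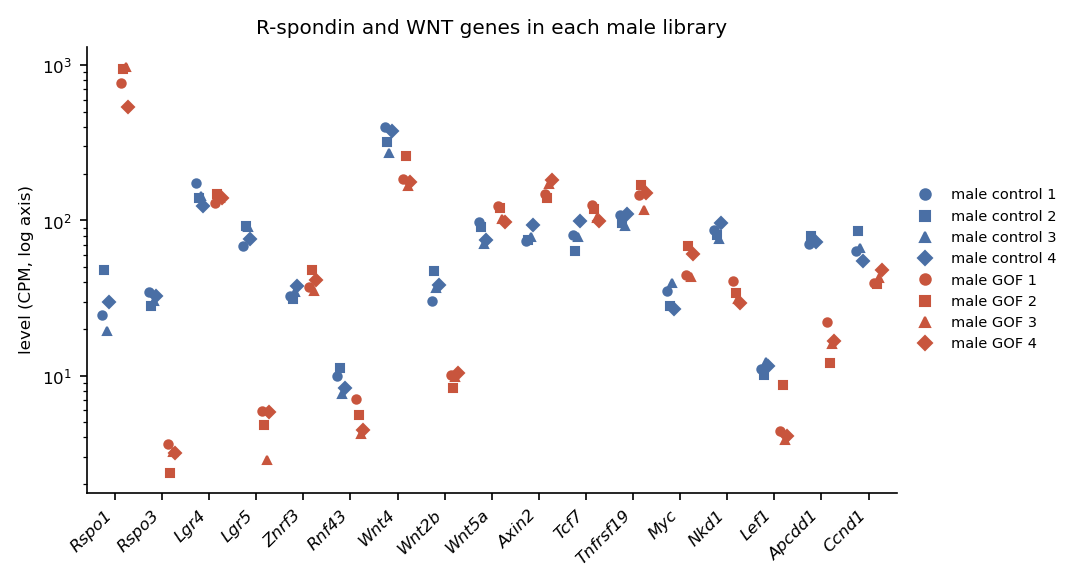
Level of 17 R-spondin and WNT genes in each male library (y axis, CPM, log axis), controls in blue and GOF in red, with a marker shape for each replicate number. Rspo1 is above every control in the 4 GOF libraries and Rspo3, Lgr5, Wnt2b and Apcdd1 below every control, while Lgr4 overlaps.

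The start regions of the feedback targets were searched for ATCAAAG, the core letters of a TCF/LEF binding motif, on both strands, in the 250 bases before each RefSeq start (GRCm38.p6). Of the 16 genes 10 had such a window, 16 windows in all, and 2 windows held the letters, against 3.21% of the 32851 windows of all genes. They belong to Tnfrsf19, which rose, and to Sp5, which did not pass (log2 fold change -0.42, edgeR adjusted p = 0.355), and are shown because both genes are in the list that went both ways. The windows of Axin2, Nkd1, Lef1 and Tcf7 did not hold these letters. A match is only a match of letters. Each window is printed 5′ to 3′ on the gene's strand with the matched letters, or their reverse complement, in capitals, at chr14:61037988-61038237 (minus strand) and chr2:70474673-70474922 (plus strand).
Tnfrsf19: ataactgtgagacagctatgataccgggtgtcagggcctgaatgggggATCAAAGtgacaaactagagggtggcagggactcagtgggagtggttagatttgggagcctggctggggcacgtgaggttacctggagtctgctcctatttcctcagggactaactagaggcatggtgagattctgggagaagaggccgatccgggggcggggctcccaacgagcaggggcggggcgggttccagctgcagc
Sp5: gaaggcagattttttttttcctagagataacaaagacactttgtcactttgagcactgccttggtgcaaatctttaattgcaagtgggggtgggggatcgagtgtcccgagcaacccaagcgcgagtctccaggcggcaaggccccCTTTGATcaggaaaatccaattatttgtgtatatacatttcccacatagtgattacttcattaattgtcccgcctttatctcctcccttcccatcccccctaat

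Genes of the zona glomerulosa fell: 6 of 10 passed and none rose, median -1.58, with the same counts without male control 2. Cyp11b2 (chromosome 15, 74851010 to 74856318), which encodes aldosterone synthase, had 339, 134, 361 and 168 CPM in controls and 61.7, 20.1, 65.5 and 57.4 CPM in GOF. The controls fell into a higher pair and a lower pair, all above the highest GOF library, and the log2 fold change was -2.29 ± 0.409 (SE; edgeR adjusted p = 0.000565). Cyp11b2 is very similar in sequence to Cyp11b1, so reads of one may have been counted for the other. Vsnl1, a calcium sensor of glomerulosa cells, went from 90.0, 54.1, 79.8 and 61.0 to 14.8, 9.12, 16.6 and 8.16 CPM, -2.55 ± 0.213 (edgeR adjusted p = 1.08e-06). Kcnk9, a background potassium channel, fell by 1.97, and Agtr1b, an angiotensin II receptor, by 2.17. Hsd3b6 was spread widely in GOF, with 93.4, 22.2, 54.2 and 5.10 CPM against 193, 109.8, 272 and 169.8 CPM in controls; it fell by 2.09. Without the count filter the log2 fold change of Hsd3b6 was -2.06 (edgeR adjusted p = 0.0512), and with only the male libraries -2.08 (0.0647). Dab2, an endocytic adaptor, fell by 1.18, and more than in females, with a difference of -0.96 ± 0.214 (edgeR adjusted p = 0.0224). The receptor Agtr1a and the channel Kcnk3 overlapped between the groups and did not pass, at -0.14 and -0.32.

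Of 5 zona fasciculata genes none rose and 1 fell in edgeR, 2 at an unadjusted p under 0.05 and 2 with DESeq2, with a median of -0.38. The counts turned on single libraries: 1 rose and 0 fell without male control 1, 2 fell without male control 4 or male GOF 2, and 0 fell on leaving out any of male GOF 1, 3 and 4. Cyp11b1, which makes corticosterone in the mouse, had 6776, 3364, 3086 and 3181 CPM in controls and 4873, 6324, 4694 and 5786 CPM in GOF. Male control 1 was above every GOF library and the other 3 controls below every GOF library, and the log2 fold change was 0.40 ± 0.2201 (edgeR adjusted p = 0.166). Without male control 1 Cyp11b1 passed, at 0.75 (edgeR adjusted p = 0.00088), and it also passed in both limma fits. The ACTH receptor gene Mc2r (-0.38), Akr1b7 (-0.95) and Abcb1b (-0.26) did not pass, but without male GOF 2 Mc2r and Akr1b7 did, at -0.76 and -1.20 (edgeR adjusted p = 0.0124 and 0.0430). Mrap, which encodes the accessory protein of the ACTH receptor, passed at -0.70 with an edgeR adjusted p of 0.0488, just under the threshold, and lost the call in 14 of the alternatives tried, among them leaving out male control 1 or any GOF library.

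Of 10 genes of steroid synthesis shared by all zones 3 rose and 1 fell, a share near the 36.9% of all genes called. Their log2 fold changes ran from -0.68 to 1.04, and the median of 0.01 was below 0 in 5 alternatives: on leaving out male control 2, 3 or 4, male GOF 2, or the libraries male control 2, male GOF 1 and male GOF 2 at once. Soat1, which esterifies cholesterol for storage, rose from 531, 534, 703 and 659 CPM to 969, 1004, 1069.7 and 1101 CPM without overlap (0.77 ± 0.107, edgeR adjusted p = 5.59e-05). Hsd3b1, a 3β-hydroxysteroid dehydrogenase gene, passed at 0.61 (edgeR adjusted p = 0.0301), but was highest in male GOF 2 and gave 0.41 with an adjusted p of 0.129 without it, and 0.60 with 0.0668 without male control 2. Its call was also lost without male control 3 or male control 4. Star, which carries cholesterol into mitochondria, had 16059, 9885, 9239 and 9842 CPM in controls, highest by far in male control 1, and 7844, 8626, 6873 and 6956 CPM in GOF, and passed at -0.57 (edgeR adjusted p = 0.0437). Without male control 1 the log2 fold change of Star was -0.35 with an adjusted p of 0.162, and it also lost its call on leaving out male control 2 or any of male GOF 1, 3 and 4, with RLE or upper-quartile factors, in both limma fits and with only the male libraries, 14 alternatives in all. Cyp11a1, the side-chain cleavage enzyme gene, and Cyp21a1, the 21-hydroxylase gene, did not pass, at 0.25 and -0.68 (edgeR adjusted p = 0.183 and 0.0509). Cyp21a1 passed in DESeq2, in both limma fits, with at least 10 counts in every library, and in edgeR without male GOF 1 or male GOF 2, at -0.81 and -0.99. Male control 1, which held the highest Cyp11b1, Star and Akr1b7 values, was also the control with the lowest mitosis and collagen sums.

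**Figure D3:**
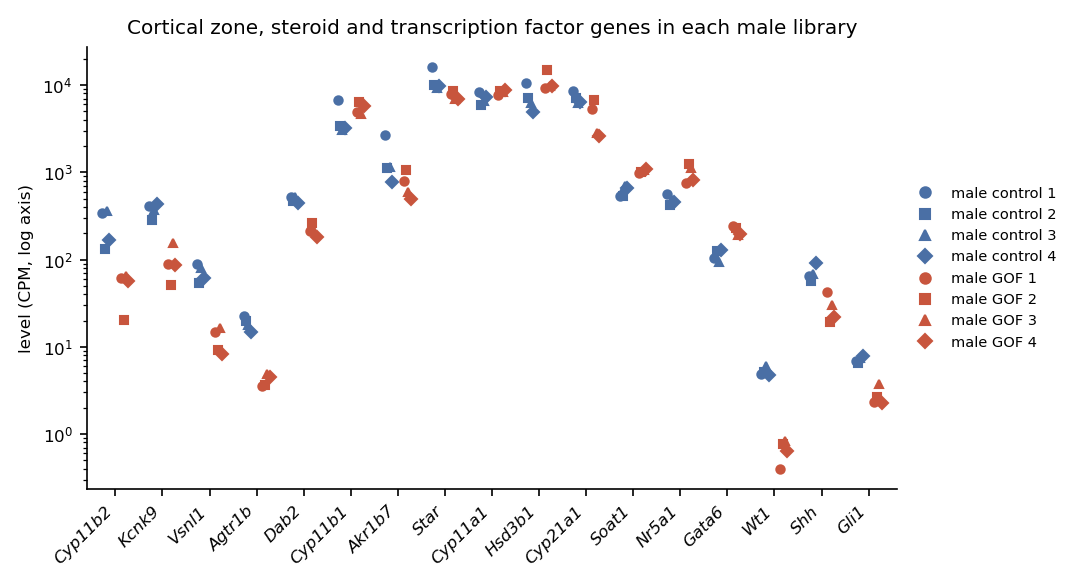
Level of 17 cortical genes in each male library (y axis, CPM, log axis), controls in blue and GOF in red, with a marker shape for each replicate number. The 5 glomerulosa genes on the left lie lower in GOF, Cyp11b1, Akr1b7, Cyp11a1, Hsd3b1 and Cyp21a1 overlap, and Soat1, Nr5a1 and Gata6 lie higher in GOF.

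Genes for making and taking up cholesterol, the precursor of steroids, fell in 9 of 16 cases and rose in none, median -0.89. Without male control 2, 7 fell and 1 rose, and without male control 1, which had the highest sum of these genes, 4 fell and the median was -0.51. Fdft1, squalene synthase, went from 102, 128, 89.4 and 60.7 CPM to 38.4, 39.6, 28.3 and 26.9 CPM (-1.51 ± 0.191, edgeR adjusted p = 2.64e-05), and Insig1, a sterol sensor, fell by 1.10. Hmgcs1, an early enzyme of the pathway, did not pass at 0.38, and was the gene called higher without male control 2, at 0.56 (edgeR adjusted p = 0.0308).

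Transcription factors of the cortex split into those that rose and those that fell, 3 and 4 of 10. Nr5a1 (chromosome 2, 38692656 to 38714542) encodes steroidogenic factor 1, the regulator of steroid cell identity, and had 565, 426, 479.9 and 459 CPM in controls and 753, 1249.6, 1132 and 825 CPM in GOF. The groups did not overlap, and the log2 fold change was 1.04 ± 0.224 (edgeR adjusted p = 0.00224). Gata6 rose from 104, 124, 93.4 and 129 to 244, 228, 193 and 198 CPM, by 0.94 ± 0.124 (edgeR adjusted p = 3.83e-05). Wt1, a factor of the adrenogonadal primordium and of capsular cells, fell from 4.83, 5.09, 5.97 and 4.73 CPM to 0.398, 0.772, 0.826 and 0.634 CPM, by 2.96 ± 0.410 on the log2 scale (edgeR adjusted p = 5.59e-05). The capsular factor Tcf21 fell by 1.04. Gata4, low in all libraries, passed at -0.90 but lost its call on leaving out male control 3 or either of male GOF 1 and 4 (edgeR adjusted p of up to 0.0785). Nr0b1, which encodes DAX1, was at 22.0 CPM in male GOF 2 and at 3.87 to 5.66 CPM in the other GOF libraries against 9.60 to 12.4 CPM in controls, and did not pass (edgeR adjusted p = 0.595). Of 11 tested genes of gonadal fate, none rose and 4 fell, a share called near the 36.9% of all genes. When male control 4 or either of male GOF 2 and 4 was left out, 2 fell. Fst, which encodes the activin-binding follistatin, fell by 3.53, or by 3.05 without male control 2.

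The hedgehog pathway, by which cortical cells signal to the capsule, fell in 6 of 10 genes and rose in 1, median -1.04. Shh, the ligand gene, expressed by outer cortical cells, went from 64.3, 56.9, 68.0 and 90.2 CPM to 41.9, 19.3, 30.5 and 21.8 CPM, without overlap (-1.30 ± 0.252, edgeR adjusted p = 0.00103). Its receptor and target Ptch1 fell by 0.78, the target and effector Gli1 by 1.37 and the ligand-binding inhibitor Hhip by 1.89. Smo, the signal transducer, rose by 0.24 ± 0.0621 (edgeR adjusted p = 0.00705), a call lost without male control 2, male GOF 1 and male GOF 2 together, at 0.14.

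All 7 capsule genes fell, median -1.48, and all 7 also fell without male control 2. Rspo3, Gli1 and Tcf21 among them are also counted in lists above. Their summed level was 696 to 879.5 CPM in controls and 199 to 237 CPM in GOF. Dcn, which encodes the proteoglycan decorin of fibroblasts, had 449, 462, 512 and 354 CPM in controls and 94.1, 80.3, 77.1 and 68.1 CPM in GOF (-2.47 ± 0.182, edgeR adjusted p = 4.07e-07). Pdgfra fell by 1.48 and Nr2f2 by 0.48. CPM is relative to all counts of a library. In whole glands fewer cells of a type, less RNA per cell and more RNA from other cells cannot be told apart. The amount of surrounding tissue in each sample was not known either. These limits hold here and for each cell type that follows. Among 15 collagens 9 fell and 2 rose, or 1 rose without male control 2. Without that library, male GOF 1 and male GOF 2 together 5 fell. Col1a1, the main fibrillar collagen, varied widely among controls, with 265, 558, 1689.8 and 816 CPM, and little among GOF libraries, with 222, 189, 208 and 222 CPM; the lowest control, male control 1, was close to the GOF values. Its log2 fold change was -1.98 ± 0.455 (edgeR adjusted p = 0.00357). Col5a1 went the other way, from 148, 189.8, 276 and 323 CPM to 459.8, 328, 494 and 516 CPM, by 0.94 ± 0.212 (edgeR adjusted p = 0.00305).

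Genes of the medulla fell. All 8 passed, median -3.90, or -3.72 without male control 2, and their summed level was 7586 to 11535 CPM in controls against 398 to 886 CPM in GOF. Pnmt (chromosome 11, 98386450 to 98388181), whose enzyme turns noradrenaline into adrenaline, had 417, 508, 267 and 139 CPM in controls and 8.24, 8.92, 9.72 and 13.4 CPM in GOF. That was a 33.1-fold decrease, with a log2 fold change of -5.05 ± 0.607 (edgeR adjusted p = 2.06e-05). Th, the first enzyme of catecholamine synthesis, went from 328, 554.4, 388 and 427 CPM to 25.2, 17.0, 22.6 and 59.3 CPM (-3.78 ± 0.528, edgeR adjusted p = 7.49e-05), and male GOF 4 kept the highest GOF value of both genes. The granule proteins Chga and Chgb fell by 4.19 and 4.03 on the log2 scale. All 9 transcription factors of the sympathoadrenal lineage fell too, median -3.93, with Phox2a at -4.09, Insm1 at -3.78 and Gata2, at -2.92, the least changed. Gata3, a factor of sympathetic and chromaffin cells, fell by 3.93. The 6 Schwann cell genes, markers of the glia of adrenal nerves, all fell, median -3.49, and 5 of 6 fell without male control 2, median -2.92. Their sum was 204 CPM in that library against 37.6 to 63.1 in the other controls and 8.41 to 10.2 in GOF, and the median was -1.84 in limma on log2(FPKM + 1). Sox10 fell by 3.69, or by 3.21 without male control 2. Medulla genes were also highest, in sum, in male control 2.

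**Figure D4:**
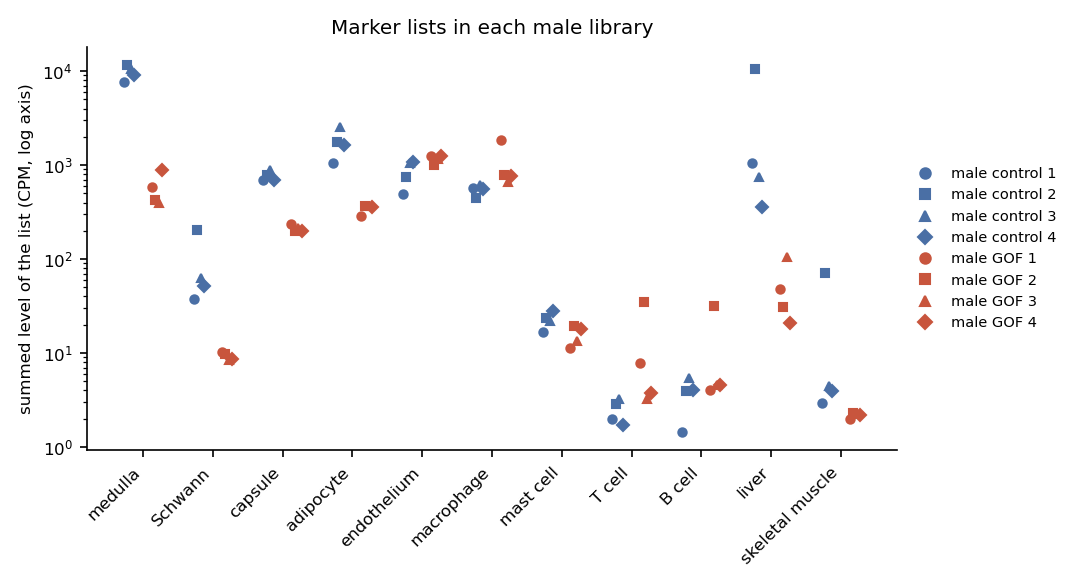
Summed level of 11 marker lists in each male library (y axis, CPM, log axis), controls in blue and GOF in red, with a marker shape for each replicate number. Medulla, Schwann, capsule and fat sums are lower in all 4 GOF libraries; male control 2 is far above the rest for liver and muscle, male GOF 1 for macrophages and male GOF 2 for T and B cells.

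Fat cell genes fell in 6 of 6 cases, median -2.96. Adipoq, the adiponectin gene, had 205, 249.5, 360.4 and 224 CPM in controls and 15.6, 9.77, 18.1 and 12.1 CPM in GOF (-4.22 ± 0.327, edgeR adjusted p = 7.56e-07). Cidec, a lipid droplet protein gene, fell by 4.59, and Cidea and Cox8b, genes of brown fat, by 4.54 and 4.24. Plin1, which steroid cells also express, overlapped between the groups and fell by 0.93. The decrease was larger in males than in females for Adipoq and Cidec, by -1.92 ± 0.411 and -2.55 ± 0.564 on the log2 scale (edgeR adjusted p = 0.0191 and 0.0230).

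Of 10 imprinted genes, which are expressed from 1 parental copy and active in fetal and progenitor cells, 9 fell, with a median of -1.86. Dlk1, made by capsular and chromaffin cells, had 863, 998, 996 and 826 CPM in controls and 62.3, 44.4, 38.3 and 67.1 CPM in GOF (-4.12 ± 0.344, edgeR adjusted p = 1.13e-06). Meg3, a non-coding RNA of the same locus, fell by 2.34, and Ndn went from 264, 305, 252 and 233 to 75.1, 69.2, 68.5 and 54.6 CPM, a decrease that was larger than in females by -0.82 ± 0.151 (edgeR adjusted p = 0.00722). Igf2, with 3 counts or fewer in every GOF library, was at least 11.7-fold lower, against 3 counts in the shallowest GOF library, or at least 10.5-fold without male control 2. Cdkn1c, a cell cycle inhibitor expressed in the cortex, did not pass, at -0.13.

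Respiratory chain genes fell: 19 of 20 nuclear genes passed, none higher, all 20 between -0.91 and -0.27 on the log2 scale, median -0.63, and 6 of 9 mitochondrially encoded genes, median -0.56, of which 3 passed without male control 2, male GOF 1 and male GOF 2 together. Sdha, a subunit of complex II, went from 823, 945, 999 and 866 CPM to 462, 591, 431 and 483 CPM without overlap (-0.89 ± 0.106, edgeR adjusted p = 1.50e-05), a larger decrease than in females by -0.63 ± 0.148 (edgeR adjusted p = 0.0285). The mitochondrial gene mt-Nd5 went from 3975, 3772, 4154 and 3901 to 1855, 2007, 2131 and 2226 CPM, and mitochondrial genes together held 4.10% to 5.33% of counts in controls and 2.92% to 3.77% in GOF. Antioxidant genes split, with 8 of 18 lower and 2 higher. Gpx3, a secreted glutathione peroxidase gene, fell from 923, 557, 815 and 536 CPM to 83.2, 59.1, 70.6 and 72.4 CPM (-3.31 ± 0.635, edgeR adjusted p = 0.00103), and the glutathione transferase gene Gsta3, highest in male control 2, by 4.45 with it and 3.10 without it. Gstm1 and Gstm2, transferases of another class with similar sequences, rose by 0.98 and 1.16.

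Of 16 mitosis genes 0 passed in edgeR, 0 at an unadjusted p under 0.05 (46.4% of all genes) and 0 with DESeq2 (40.4%), with a median of 0.08; the median became negative with a covariate for the number in the sample title (below 600, or 600 and above, which the labels do not call a batch), without male control 1 and without male GOF 3. Mki67, a marker of dividing cells, had 2.98, 17.2, 34.7 and 20.3 CPM in controls and 10.9, 21.004, 37.5 and 19.5 CPM in GOF, with male control 1 far below the rest (0.24 ± 0.536, edgeR adjusted p = 0.759). Of 16 DNA replication genes 1 fell, the cyclin E gene Ccne1, by 1.34, and none rose. For 5 of the 16, Ccne1 and Mcm4 among them, the effect was lower in males than in females by edgeR, for 9 by DESeq2, and for all 16 at an unadjusted p under 0.05 in edgeR. Of all genes with a DESeq2 adjusted p, 8.27% passed that test between the sexes and 4.67% were lower in males. At an unadjusted p under 0.05 in edgeR the shares of all genes were 20.2% and 13.2%. Mcm4 was at 23.8 ± 2.36 CPM in male controls and 22.8 ± 1.46 in male GOF, and at 33.6 ± 3.51 and 59.0 ± 9.62 in females (SD, n = 4), a difference of effects of -0.88 ± 0.166 (edgeR adjusted p = 0.00878). Of the 16 mitosis genes 0 passed the edgeR test between the sexes and 0 that of DESeq2, and 5 had an unadjusted p under 0.05, all lower in males, against the 13.2% of all genes; the median difference was -1.45.

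Blood vessel genes lay above 0 in 9 of 9 cases, median 0.43, and 3 passed, or 5 without male control 4 and 1 without male GOF 3. Of all tested genes 36.9% passed, and 15.2% passed as higher. Plvap, a protein of fenestrated capillaries, rose from 67.0, 105, 121 and 161 CPM to 317, 224, 223 and 268 CPM without overlap (1.18 ± 0.231, edgeR adjusted p = 0.00109). Egfl7 rose by 0.78, a call lost without male GOF 3 (0.61, edgeR adjusted p = 0.0611), and Emcn by 0.53, but Emcn lost its call in 9 alternatives, among them leaving out male control 1, any of male GOF 1, 3 and 4, or male control 2 (0.48, edgeR adjusted p = 0.105). The general endothelial marker Pecam1 did not pass, at 0.28.

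Immune genes depended on single libraries. Of 12 macrophage genes 6 rose and 1 fell, median 0.65, but 1 rose without male control 2 or without male GOF 1, and 3 without male control 3. Lyz2, which encodes lysozyme, had 885, 261, 180.2 and 203 CPM in GOF and 138, 131, 183 and 141 CPM in controls; its log2 fold change of 1.36 (edgeR adjusted p = 0.0396) became 0.51 (0.269) without male GOF 1. Without any 1 of the controls the change of Lyz2 was 1.31 to 1.48, and its edgeR adjusted p 0.0571 to 0.0820. Gpnmb, a marker of lipid-laden macrophages, stood at 403, 8.89, 10.04 and 27.0 CPM in GOF and 16.2, 14.5, 5.50 and 11.0 CPM in controls, so that only male GOF 1 was high, and went from 3.25 to 0.36 without it (edgeR adjusted p = 0.749). Without any 1 of the controls the change of Gpnmb was 3.02 to 3.44, and its edgeR adjusted p 0.0686 to 0.0976. Cd163, a scavenger receptor of resident macrophages, fell in every GOF library, from 15.4, 9.74, 12.4 and 10.6 CPM to 3.15, 4.69, 4.88 and 5.38 CPM (-1.41 ± 0.229, edgeR adjusted p = 0.000227), and kept its call without male control 2. The T cell gene Cd8a was at 0.504, 8.83, 1.002 and 0.816 CPM in GOF and lost its call without male GOF 2 (0.79, edgeR adjusted p = 0.304). Without male control 1, 3 or 4 the change of Cd8a was 2.40 to 2.64, and its edgeR adjusted p 0.0519 to 0.0607. Cd4, high in male GOF 1 and 2, kept its call without male GOF 2, at 1.70 (edgeR adjusted p = 0.0293), but not without male control 2, male GOF 1 and male GOF 2 together, at 0.50 (edgeR adjusted p = 0.510).

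Mast cell proteases went in opposite directions in the means of the sexes. In males 4 of 5 genes fell, and for the same 4 the effect was lower than in females. Mcpt4 had 2.77, 2.78, 2.44 and 3.56 CPM in male controls and 0.0795, 0.4001, 0.0751 and 0.302 CPM in male GOF, without overlap (-3.75 ± 0.641, edgeR adjusted p = 0.000357). In females its mean was 1.19 ± 0.304 CPM in controls and 3.32 ± 2.30 CPM in GOF, and the difference of effects was -5.23 ± 0.850 (edgeR adjusted p = 0.00410). Tpsb2, Cpa3 and Cma1 fell by 3.50, 2.62 and 3.18 on the log2 scale. Mcpt4, Tpsb2 and Cma1 had few counts in male GOF, where 3 counts are 0.0795 CPM in male GOF 1 and 0.0751 in male GOF 3. The sizes of their changes are therefore uncertain. Among genes with at least 10 counts in every library compared, the list's median was 0.39, against -3.18 in the main test. Kit, also expressed by other cells, did not pass, at 0.38.

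By the rule on size, which took the 12 highest and 12 lowest genes called both with and without male control 2, the highest after Rspo1 included Gabrg3, Nr6a1, Kcne3, Nxph1 and Crym. Gabrg3, a GABA receptor subunit gene, had 3.05, 3.72, 4.02 and 3.72 CPM in controls and 31.3, 15.3, 37.6 and 82.4 CPM in GOF, where male GOF 4 was highest (3.52 ± 0.409, edgeR adjusted p = 1.43e-05). Crym, which encodes a thyroid hormone-binding protein, went from 13.6, 7.29, 19.8 and 12.5 to 141, 49.0, 95.7 and 119.7 CPM (2.93 ± 0.494, edgeR adjusted p = 0.000359). Nr6a1, an orphan nuclear receptor gene, rose by 2.62, Kcne3, a potassium channel subunit gene, by 2.74 and Nxph1 by 2.64. The others, Adgrd2-ps, Pla2g4b, Xlr4b, Odf3, Tmem178 and Vmn2r14, rose by 2.63 to 3.63; all but Tmem178 stood at 4.78 CPM or less in each male library. Xlr4b lost its call without male control 2, male GOF 1 and male GOF 2 together, at 2.31 (edgeR adjusted p = 0.0912), and Tmem178 without male GOF 4, at 1.90 (edgeR adjusted p = 0.0523). Of the genes above 100 CPM, Trank1 rose from 244, 159.7, 253 and 445 CPM to 1359, 769, 1903 and 1384 CPM (2.30 ± 0.351, edgeR adjusted p = 0.000155). Ggt5, a glutathione and leukotriene hydrolase gene, rose by 1.98, and Tmem86a, Tbx3os1 and Phf20l1 by 1.49 to 1.58. The Phf20l1 increase was larger than in females by 1.51 ± 0.319 (edgeR adjusted p = 0.0170), and Tbx3os1 is annotated as antisense, so its reads and those of its partner cannot be told apart.

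The 12 lowest genes were Ush1c, Calb2, Nell1, Scgn, Trpc5, Kcnj3, Slitrk5, Fam183b, Kcnip1, Prrxl1, Thsd7b and Spock1. Several were at or under 3 counts in every GOF library, so that only a bound can be given: Calb2, a calcium-binding protein of neurons, was at least 22.3-fold lower, Nell1 at least 28.4-fold, Fam183b at least 29.5-fold, Slitrk5 at least 26.8-fold and Kcnj3, a potassium channel gene, at least 24.7-fold, or at least 13.7-fold without male control 2. Spock1, a secreted proteoglycan gene, had 25.7, 49.2, 32.3 and 25.0 CPM in controls and 1.14, 0.886, 0.551 and 1.18 CPM in GOF (-5.14 ± 0.510, edgeR adjusted p = 3.56e-06). Scgn, another calcium-binding protein gene, fell from 12.9, 17.0, 13.3 and 2.96 CPM to 0.0265, 0.0286, 0.426 and 0.0906 CPM, and Kcnip1, Trpc5, Prrxl1 and Thsd7b fell by 5.04 to 5.80 on the log2 scale. Ush1c was uneven among controls, with 31.1, 19.2, 0.185 and 0.435 CPM, and lost its call in both limma fits and without male control 2, male GOF 1 and male GOF 2 together. Of genes above 100 CPM, the lowest were Pnmt, the fat-related Cidec, Cidea, Cfd, Cox8b and Adipoq, and Ces1d and Cdo1, the last with 270.4, 369, 270.0 and 169 CPM in controls and 11.7, 9.89, 10.6 and 10.9 CPM in GOF (-4.65 ± 0.331, edgeR adjusted p = 3.84e-07).

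Calls of liver genes depended on male control 2. All 12 liver genes were called lower with that library and 3 without it, Hp, Cyp2e1 and Apoc3, while DESeq2 on all libraries called 3 and edgeR called 7, 4 and 4 without male GOF 1, male GOF 2 or male GOF 4. The median moved from -6.30 to -1.01. Alb, the albumin gene, had 5.9999, 5861, 16.4 and 0.517 CPM in controls and 0.636, 6.43, 33.6 and 0.0906 CPM in GOF, and its log2 fold change went from -7.16 to 0.42 (edgeR adjusted p = 0.877). Hp, which encodes haptoglobin and is also made by fat cells, kept its call: it had 262, 493, 179 and 178 CPM in controls and 19.2, 9.37, 16.8 and 12.7 CPM in GOF, and fell by 3.83 without that library (edgeR adjusted p = 7.66e-07). Cyp2e1 fell by 4.84 without it. The X-zone genes Akr1c18 and Pik3c2g, markers of the innermost cortex, were at 1.76 CPM or less in every male library, and were not among the genes tested when only the male libraries set the filter. Their calls in males were lost without male control 2 (edgeR adjusted p = 0.0524 and 0.160).

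**Figure D5:**
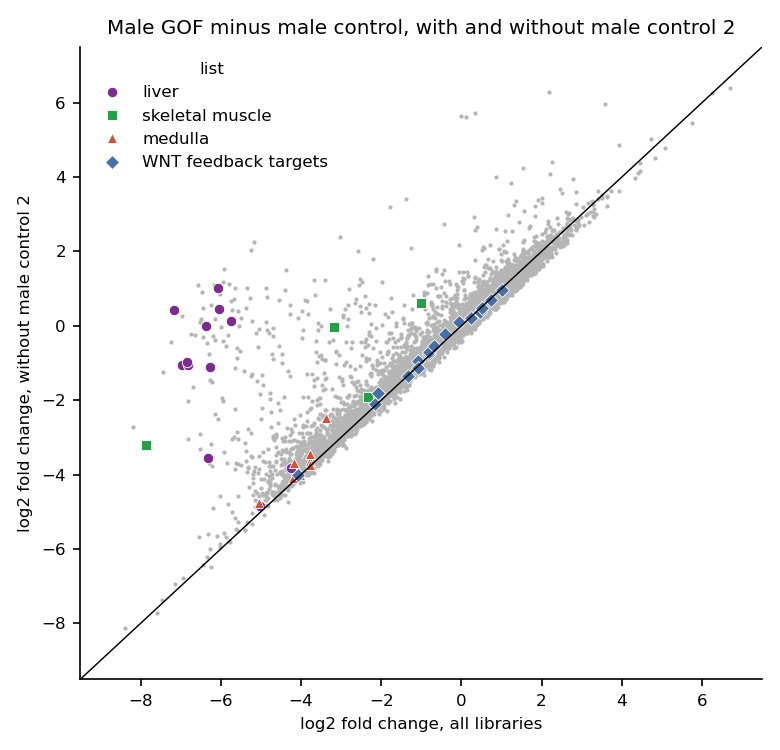
Log2 fold change of each tested gene with all libraries (x axis) and without male control 2 (y axis), with the diagonal as a line; grey points are all genes and coloured points are 4 lists. The liver genes move up, from a median of -6.30 to -1.01, with Hp, Cyp2e1 and Apoc3 still far below 0, while medulla genes and WNT feedback targets stay near the diagonal.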

How the data were processed

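Bulk RNA sequencing was done on adrenal glands of single mice. Per the labels' protocols, total RNA was purified on columns, had a RIN of 7.0 or more and was made into libraries with a NEBNext Ultra kit, sequenced as paired 150 bp Illumina reads by a company that also ran a differential expression analysis. The submitters' processing notes list Bowtie2 2.2.3, TopHat2 2.0.12, HTSeq 0.6.1 and DESeq 1.18.0 without roles; build, annotation and strand setting were not given in the sources used here. The authors deposited whole-number counts per Ensembl gene, without normalization. The deposited FPKM table, made by the authors, is scaled to gene length and library total. The lengths they imply were within 1 base of the mean transcript length of GENCODE M21 for 97.8% of 34180 genes, and for 96.4% of 18245 genes with more than 1 transcript, and 54809 of 54838 identifiers were in that annotation, so symbols and GRCm38 coordinates come from it.

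Counts were scaled with TMM factors, filtered with filterByExpr by group and tested in edgeR 4.0.16 (R 4.3.3) by its quasi-likelihood method with robust dispersions, in 1 model of all 16 libraries with a mean per group, with Benjamini-Hochberg adjustment over 18214 genes and a threshold of 0.05. Each SE was derived from the F statistic and the fold change, and levels are CPM. A gene at or under 3 counts in all libraries of a group is given as a bound against 3 counts in that group's shallowest library; floors cover counting error only. No male library was a copy of another: chi-square divided by its degrees of freedom was 29.5 or more in all 12 pairs within a group. On simulated counts for 18214 genes with 200 changed, the male comparison recovered 74% of them, 86% of 4-fold and 62% of 2-fold changes, and 5.73% of its calls were unchanged genes. The changed genes were above about 1 CPM, as many up as down, and far fewer than the 36.9% called in the data. The simulation therefore does not show how the test behaves with changes as many and as uneven as those called here.

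Named genes were the 12 highest and 12 lowest log2 fold changes without male control 2, and the 8 highest and 8 lowest at a mean of at least 100 CPM, among genes called in the same direction with and without that library, at a mean of at least 1 CPM, with no overlap between groups and a symbol that is no clone name, plus members of 41 lists. Xist, genes of chromosome Y and the liver, kidney and muscle lists were left out of the ranking. The members, lists and library to leave out were chosen with earlier results of these data known. Sex hormone receptors and a few other genes that the rule or the lists name are not reported here. Alternatives were DESeq2 1.42.0, RLE and upper-quartile factors, no filter or at least 10 counts in every library, limma 3.58.1 on log2(FPKM + 1) and log2(FPKM + 0.1) at a mean FPKM of at least 0.5, the number in the sample title (below 600, or 600 and above) as a covariate, only male libraries, each library left out, and an absolute log2 fold change of at least 1; leaving out male control 2, male GOF 1 and male GOF 2 together was added after seeing the data. Tables and plots used Python 3.11.15 with pandas 2.3.3 and matplotlib 3.10.9.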

Additional observations from a re-analysis of the deposited data

Results flagged for a closer look

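In 27 of 302 groups of 4 libraries, over 155 named genes, 1 library stood apart from the other 3 by Dixon's test, where chance flags about 1 in 20 groups. Values are CPM, with the range of the other 3 libraries of the group. Male GOF 2 stood apart for Lef1 at 8.72 (3.86 to 4.43), Hsd3b1 at 14945 (9306 to 9872) and Nr0b1 at 22.0 (3.87 to 5.66). It did so too for Col3a1 at 224 (269 to 274), Cd8a at 8.83 (0.504 to 1.002) and Cd3e at 3.86 (0.175 to 0.398). The remaining values there were Cd79a at 11.6 (1.25 to 1.98), Tpsb2 at 0.686 (0.1002 to 0.181) and Cma1 at 0.686 (0.211 to 0.265). Male GOF 1 stood apart for Csf1r at 87.3 (54.9 to 59.2) and Lyz2 at 885 (180.2 to 261). It did so too for Gpnmb at 403 (8.89 to 27.0), Trem2 at 43.3 (9.54 to 10.1) and Lgals3 at 193 (16.7 to 36.0). The remaining values there were Gstm1 at 974 (613 to 669.9) and Gstm2 at 723 (473 to 508). Male control 2 stood apart for Dkk3 at 152 (54.9 to 61.9) and Sp5 at 4.62 (2.75 to 3.02). It did so too for Gsta3 at 120.2 (14.8 to 18.9) and Alb at 5861 (0.517 to 16.4). Male control 1 stood apart for Cyp11b1 at 6776 (3086 to 3364), Mrap at 567 (233 to 274) and Star at 16059 (9239 to 9885). Male GOF 4 stood apart for Wnt10b at 19.1 (0.229 to 1.67). Male control 3 stood apart for Fzd7 at 41.4 (33.0 to 34.4). Male control 4 stood apart for Adgrd2-ps at 0.218 (0.0309 to 0.0615). Male GOF 3 stood apart for Scgn at 0.426 (0.0265 to 0.0906).

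For 22 named genes the effect in males differed from that in females by the edgeR interaction term, with Benjamini-Hochberg adjustment over all genes. Values are the male minus the female log2 fold change with its SE and adjusted p. Among R-spondin and WNT genes, edgeR gave Lgr4 0.82 ± 0.141 (0.00524), Wnt4 -1.49 ± 0.260 (0.00593), Fzd7 -0.73 ± 0.190 (0.0419) and Tnfrsf19 -0.60 ± 0.157 (0.0433). Among cortical zone genes, edgeR gave Dab2 -0.96 ± 0.214 (0.0224), Abcb1b 1.33 ± 0.321 (0.0314) and Akr1c18 10.63 ± 2.49 (0.0292). Among fat and imprinted genes, edgeR gave Adipoq -1.92 ± 0.411 (0.0191), Cidec -2.55 ± 0.564 (0.0230), Cfd -2.04 ± 0.512 (0.0388) and Ndn -0.82 ± 0.151 (0.00722). Of genes of DNA replication and respiration, edgeR gave Mcm4 -0.88 ± 0.166 (0.00878), Ccne1 -2.32 ± 0.408 (0.00606) and Sdha -0.63 ± 0.148 (0.0285). For mast cell genes, edgeR gave Mcpt4 -5.23 ± 0.850 (0.00410), Tpsb2 -5.30 ± 0.943 (0.00622), Cpa3 -3.42 ± 0.739 (0.0191) and Cma1 -4.48 ± 0.813 (0.00698). Mcpt4, Tpsb2 and Cma1 had few counts in male GOF, so the sizes of their differences are uncertain. For other named genes, edgeR gave Cyp2e1 -2.70 ± 0.718 (0.0487), Vmn2r14 5.05 ± 0.967 (0.00945), Phf20l1 1.51 ± 0.319 (0.0170) and Cdo1 -2.04 ± 0.408 (0.0133). Akr1c18 was at most 1.76 CPM in every male library and was not tested when only the male libraries set the filter, so its value is given as a description only.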

How the results depend on the processing

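The number of genes called in males stayed within 1.5 times of 6725 in each alternative that kept the threshold. The number higher in GOF, 2761, became 4190 and 4159 in limma on log2(FPKM + 1) and log2(FPKM + 0.1), and 1437 without male control 2, male GOF 1 and male GOF 2 together, a choice made after seeing the data. With all libraries and an absolute log2 fold change of at least 1 the counts were 3366 called, 910 higher and 2456 lower. The number of genes whose effect differed between the sexes, 766, was 1432 with DESeq2, 408 without the count filter, and 377 to 953 when each library was left out. Of 132 named genes called, 104 kept their call in every alternative and 28 lost it in at least 1. Of 2750 values of named genes under an alternative 2558 kept direction and call, 127 lost the call, 49 gained it and 16 changed sign. Lgr4 became 0.01 with upper-quartile factors and 0.07 and 0.07 in the limma fits, and Mcm4 0.01, 0.05 and 0.06. With each library left out in turn, Lgr4 ranged from -0.13 to 0.04, Cdkn1c from -0.46 to 0.03, Mki67 from -0.15 to 0.72, Top2a from -0.10 to 0.63, Cd3e from -0.16 to 2.17 and Alb from -9.27 to 0.42. Without the 3 libraries, Cd3e was -0.27 and Alb 1.11. Of 41 list medians, 8 changed sign in at least 1 alternative. Why these values moved was not tested; fewer libraries and genes enter some of the fits. No paired analysis was possible because the labels carry no replicate numbers.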

Other observations

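Other groups of genes are given here for male GOF against control adrenals (edgeR, adjusted over all genes), to be read against the 36.9% of all tested genes that were called, 15.2% higher and 21.8% lower. In the insulin-like growth factor system 5 of 10 genes fell and none rose, or 1 rose without male GOF 2. Igfbp6, a binding protein gene, went from a mean of 92.1 to 16.9 CPM (n = 4 each), a log2 fold change of -2.45 (edgeR adjusted p = 9.69e-07), and Igf1, Igfbp4 and Igfbp5 fell by 1.26, 0.78 and 0.97. Of 12 genes of cAMP and protein kinase A signalling, the pathway downstream of the ACTH receptor, 4 fell and none rose, a share near that of all genes, and 1 rose by DESeq2 or without male control 4. Adcy5, an adenylate cyclase gene, went from a mean of 41.9 to 11.1 CPM (-1.92, edgeR adjusted p = 2.91e-05), and Adcy6 and Pde4d fell by 0.83 and 1.59. Of 9 CDK inhibitors and G1 cyclins 3 fell, Ccnd1, Ccnd2 and Cdkn1a, also a share near that of all genes, or 5 without male GOF 1. Erythroid genes fell in 3 of 7 cases, Hbb-bs, Hba-a1 and Alas2 by 1.45, 1.56 and 1.46, and in 0 without male control 2, male GOF 1 and male GOF 2 together.

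Of 10 genes of lipid-laden macrophages 3 rose and 3 fell, with 0 higher without male GOF 1 and 1 higher without male control 2, male control 3 or male control 4. Lpl, a lipase gene that fat cells also express, went from a mean of 880.3 to 80.9 CPM (-3.44, edgeR adjusted p = 7.12e-06). T cell genes rose in 2 of 5 cases, in 4 without male GOF 1 or male GOF 3, in 1 without male GOF 2, male control 1, male control 3 or male control 4, and in 0 without the 3 libraries together. Of 4 B cell genes 0 passed in edgeR, 4 had an unadjusted p under 0.05 and 2 passed in DESeq2. In edgeR 2 passed without male GOF 1 and 1 without male control 3 or male GOF 4. The median log2 fold change of the B cell genes was 1.64, and 0.17 without male GOF 2. Of 7 MHC class II genes, 3 neutrophil genes and 1 kidney gene, 0 passed in edgeR or DESeq2 and 0 had an unadjusted p under 0.05. Of 10 immediate early genes Jun rose and Nr4a3 fell, at 0.71 and -0.92, and either call was lost on leaving out single libraries. Of 4 skeletal muscle genes 3 fell, Acta1, Actn3 and Ckm, with Ckm lost without male control 2 (edgeR adjusted p = 0.975). DESeq2 called 1 of the 4, and edgeR 1 without male control 2, male GOF 1 and male GOF 2 together.

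Gene classes are given by their counts and medians. Of 15180 protein-coding genes 2081 rose and 3752 fell, with a median log2 fold change of -0.03. Among 629 antisense transcripts 145 rose and 38 fell, median 0.55. Among 703 lincRNAs 141 rose and 77 fell, median 0.35, and among 592 pseudogenes 84 rose and 34 fell, median 0.28. The strand setting of the counts was not known, so reads of an antisense transcript and of its partner cannot be told apart. The medians are relative to the scaling of the libraries and were not tested against each other.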
